A study of Mus musculus with 2 samples.

Results

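The core autophagy machinery is described here in the primary chondrocytes of *Myl3*-KO and control mice. The members are the genes of the deposited table whose symbol begins with Atg and a number, together with the ULK kinases, the subunits of the class III PI3-kinase, the WIPI proteins, the ATG8 family, 4 cargo receptors and *Tfeb*. The scaffold gene *Rb1cc1* and the regulator genes *Ambra1* and *Rubcn* are members too. This rule used symbols and no measured value, and it found 41 of the 22156 genes of the table. RNA sequencing was done on 2 libraries of chondrocytes kept as a monolayer, 1 of each genotype, whose tissue the labels give as rib cartilage. The study took both rib and articular cartilage from newborn mice for its primary cells. In *Myl3*-KO mice the Cre recombinase is driven by the *Col2a1* promoter and deletes *Myl3* between its loxP sites, so only cells in which that promoter has been active are deleted. The controls are called WT by the sample labels and *Myl3* flox/flox littermates by the study, which keeps all its mice on the C57BL/6J background. Neither library received a treatment, and the number of animals behind each library was not given in the sources used here.

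Macroautophagy encloses cytoplasm in a membrane vesicle, the autophagosome, and delivers it to the lysosome. The ULK kinase complex starts the process when the nutrient-sensing kinase mTORC1 is inactive, the class III PI3-kinase marks the growing membrane with a phospholipid, ATG9 and ATG2 supply it with lipid, and a pair of ubiquitin-like conjugation reactions attaches proteins of the ATG8 family (LC3 and GABARAP) to it. Cargo receptors such as p62 then link ubiquitinated cargo to the attached ATG8 proteins. In cartilage, autophagy is known as a housekeeping process of long-lived chondrocytes. RNA levels carry no measure of its rate, because much of the pathway is controlled by phosphorylation and lipidation.

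The library totals were 17612434.91 for the control and 13477976.98 for *Myl3*-KO, in expected counts. *Myl3* itself had 0 counts in both libraries, so its counts give no check of the genotype labels. Of 10 chondrocyte markers, 5 (among them *Acan* and *Matn1*) had 0 counts in both libraries, and the 10 together made up 57.8 CPM (counts scaled to equal library size) for the control and 45.2 for the knockout. The 8 fibroblast markers, among them the type I collagen genes, summed to 15461 and 17531 CPM. Markers of leukocytes, endothelium, skeletal muscle and erythroid cells stayed at or below 2.45 CPM in sum in either library. The counts thus do not establish the labelled cell type, and the part of cell composition in the ratios below was not tested. In bulk RNA, fewer cells of a type and less RNA per cell cannot be told apart.

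Ratios are log2 values, *Myl3*-KO divided by control, after division of the counts by the library total, with counts under 3 raised to 3. Levels between genes are compared only as FPKM, the deposited values scaled by gene length and library size. With 1 library per genotype no difference had a replicate check. Genes with 10 counts or more in sum were put to an exact binomial test, two-sided, on rounded counts, which compares the reads of these 2 libraries and not the genotypes. Intervals are 95% Clopper-Pearson intervals, which hold counting error alone. Calls needed an adjusted p (Benjamini-Hochberg, 12431 genes) under 0.05 together with a log2 ratio of 0.5 or more in size.

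Of the 41 autophagy genes, 40 were tested. The exception was *Atg4a-ps*, a pseudogene of *Atg4a* by its symbol, although GENCODE M21 lists it as protein-coding. It had 0 counts in both libraries, which allows at most 0.170 CPM for the control and 0.223 CPM for the knockout (3 counts each). The kinase gene *Ulk3* was the 1 gene called higher, against 4.03% of all genes tested called higher in this comparison, and 0 were called lower, against 1.37%. For 38 of the 40 the log2 ratio stayed under 0.5 in size, and the exceptions were *Ulk3* and the very weakly counted *Atg9b*. The median log2 ratio of the 40 was 0.12, beside 0.02 over all genes tested, and 28 of the 40 lay above that overall median. The median of the members was 0.06 when the median of genes of like length was subtracted.

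At a lower limit of 0.25 on the log2 ratio, 6 of the 40 (15.0%) were called higher, against 11.4% of all genes tested, and 3 (7.50%) were called lower, against 8.39%. Both shares were close to those of the whole table. The 6 higher genes were *Ulk1*, *Ulk2*, *Ulk3*, *Pik3r4*, *Wipi1* and *Map1lc3b*, from the initiation, class III PI3-kinase, membrane supply and ATG8 groups. The 3 lower genes, *Atg5*, *Atg3* and *Atg4a*, were grouped here under the conjugation machinery. Whether the direction of a ratio went with the step was not tested. Membership of these lists depended on the processing. With TMM, another scaling of the library totals, *Ulk1* (0.2433), *Wipi1* (0.2325) and *Map1lc3b* (0.2462) fell under the limit. With the median of genes of like length subtracted, those 3 did so too. *Ulk2* (0.2374), *Atg3* (-0.2322) and *Atg4a* (-0.2459) then also fell under it in size. Without a limit on size, the counting interval lay wholly above 0 for 19 of the 40 (47.5%, against 22.2% of all genes tested) and wholly below 0 for 3 (7.50%, against 20.1%). These shares also moved with gene length. With the median of genes of like length subtracted, the intervals of *Atg7*, *Atg12*, *Atg16l2*, *Rb1cc1*, *Uvrag*, *Rubcn*, *Wipi2* and *Nbr1* no longer lay wholly above 0. That of *Gabarap* then did, and those of *Becn1* and *Atg16l1* lay wholly below 0. The members had a median of 1506 counts over both libraries and all genes tested one of 1053, and the part of depth in these shares was not tested. The dot plot of FPKM gives the level of each member in both libraries.

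**Figure D1:**
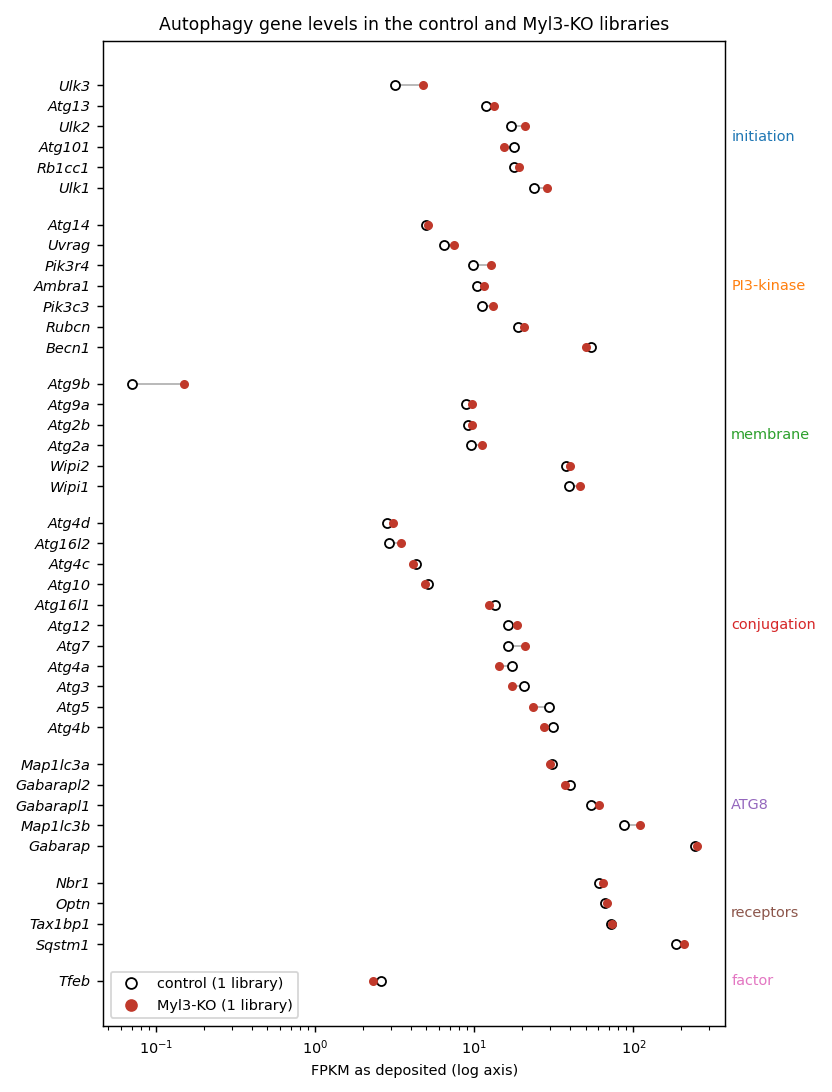
Deposited FPKM (log axis) of the 40 autophagy genes tested, grouped by role, with an open circle for the control library and a red circle for the Myl3-KO library. Levels run from 0.07 FPKM for Atg9b to 242.32 for Gabarap in the control, and the 2 circles of a gene lie farthest apart for Atg9b and then for Ulk3.

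The initiation kinase complex phosphorylates the proteins that act after it and is the step at which mTORC1 and the AMP-activated protein kinase set autophagy. All 6 genes of this group were tested, among them *Ulk3*, which was put here as a relative of *Ulk1* and not as a subunit of the complex. Of the 6, 1 (*Ulk3*) was called higher, against 4.03% of all genes tested, and 0 lower, against 1.37%. Their median log2 ratio was 0.22. *Ulk3* (ENSMUSG00000032308, chromosome 9 of GRCm38 from 57589452 to 57596233) encodes a kinase related to ULK1 that is known also for a role in Hedgehog signaling. It had 159 control and 181 *Myl3*-KO counts, or 9.03 and 13.4 CPM, although the *Myl3*-KO library was the smaller. The ratio was 1.49-fold, a log2 ratio of 0.57 (95% interval 0.26 to 0.89, adjusted p = 0.00151, exact binomial test). The call did not hold when edgeR's exact test allowed for a coefficient of variation of 0.1 between replicates, and none of the other autophagy genes was called then either. *Ulk3* was also the most weakly expressed of the 6, with 3.19 control and 4.75 *Myl3*-KO FPKM.

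*Ulk1* and *Ulk2*, the kinase genes with the best known part in starting autophagy, had larger counts and smaller ratios. *Ulk1* (chromosome 5 from 110784488 to 110810097) had 2161 control and 1982 *Myl3*-KO counts, a log2 ratio of 0.26 (95% interval 0.17 to 0.35). *Ulk2* (chromosome 11 from 61775649 to 61855073) had 1731 and 1615 counts, a log2 ratio of 0.29 (95% interval 0.19 to 0.38). The 3 kinase genes thus all had a higher CPM in the *Myl3*-KO library, by more than the counting error. The scaffold genes of the complex were nearer to the table's median. *Rb1cc1*, which encodes the large scaffold FIP200, had a log2 ratio of 0.12 (0.02 to 0.22 as 95% interval) and *Atg13* one of 0.18 (95% interval 0.02 to 0.33). *Atg101*, which encodes the partner that stabilizes ATG13, was the lowest of the 6, with 383 and 253 counts and a log2 ratio of -0.21 (95% interval -0.45 to 0.02), which spans 0.

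The class III PI3-kinase acts in complexes that share the lipid kinase VPS34 (*Pik3c3*), its regulatory subunit VPS15 (*Pik3r4*) and Beclin 1 (*Becn1*), and that differ in carrying ATG14 at the autophagosome or UVRAG at endosomes. None of the 7 genes of this group was called, against 4.03% of all genes tested called higher and 1.37% lower. Their median log2 ratio was 0.14. *Pik3r4* (chromosome 9 from 105642978 to 105687657) was the highest, with 657 control and 652 *Myl3*-KO counts, a log2 ratio of 0.37 (95% interval 0.22 to 0.53, adjusted p = 2.24e-05, exact binomial test). *Pik3c3* had a log2 ratio of 0.23 (95% interval 0.06 to 0.39). The catalytic subunit and its partner VPS15 thus lay on the same side of 0, while Beclin 1 did not. *Becn1*, the most abundant of the group at 54.30 control and 50.51 *Myl3*-KO FPKM, had 2370.84 and 1744.60 counts and the lowest log2 ratio, -0.06 (95% interval -0.15 to 0.03). Its counts were not whole numbers, and its exons overlap those of *Cntd1* on the opposite strand, and how reads were shared out there is not known.

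Of the subunits that tell the PI3-kinase complexes apart, *Atg14* had 300 and 236 counts (log2 ratio 0.04, 95% interval -0.21 to 0.29) and *Uvrag* 585 and 514 (log2 ratio 0.20, 95% interval 0.03 to 0.37). The difference between these 2 ratios was not tested, and their intervals overlap. *Rubcn*, which encodes the inhibitor Rubicon, had 1690 and 1430 counts and a log2 ratio of 0.14 (95% interval 0.04 to 0.25). *Ambra1*, which encodes a Beclin 1 partner, had 930 and 778 counts and a log2 ratio of 0.13 (95% interval -0.01 to 0.27).

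The membrane supply group holds the scramblase genes *Atg9a* and *Atg9b*, the lipid transfer genes *Atg2a* and *Atg2b* and the genes of the phosphoinositide-binding WIPI proteins. None of the 6 was called, against 4.03% of all genes tested called higher and 1.37% lower. All 6 lay above the overall median, with a group median of 0.17. That group median was 0.11 with at least 10 counts asked of each library, which leaves out *Atg9b*. With the median of genes of like length subtracted, *Atg9a* and *Atg2b* were just below 0. *Wipi1* (chromosome 11 from 109573331 to 109611967) had 1595 control and 1452 *Myl3*-KO counts, a log2 ratio of 0.25 (95% interval 0.15 to 0.35). *Atg2a* had a log2 ratio of 0.22 (0.09 to 0.35 as 95% interval) and *Wipi2* one of 0.11 (95% interval 0.03 to 0.19). The intervals of *Atg2b* (907.04 and 731.18 counts) and *Atg9a* (611 and 482 counts) spanned 0. *Atg9a* was the lowest of the group, with a log2 ratio of 0.04 (95% interval -0.13 to 0.22). It overlaps *Ankzf1*, and 32.0% of the 31-base words of its transcripts also occur in *Gm29253*.

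*Atg9b*, the second scramblase gene, was barely detected. It had 5 control and 7.65 *Myl3*-KO counts, and 0.07 and 0.15 FPKM, and the 95% interval of its log2 ratio ran from -0.73 to 3.02. At this depth no difference was detectable, and *Atg9b* overlaps *Nos3* on the opposite strand. With 611 and 482 counts, *Atg9a* supplied nearly all of the reads of this pair in both libraries.

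The conjugation machinery attaches ATG12 to ATG5 and ATG8 proteins to phosphatidylethanolamine. ATG7 is the activating enzyme of both reactions, ATG10 and ATG3 are the transfer enzymes, ATG16L1 holds the ATG12-ATG5 conjugate at the membrane, and the ATG4 proteases trim ATG8 proteins and release them again. None of the 11 genes was called, against 4.03% of all genes tested called higher and 1.37% lower. Their median log2 ratio was -0.02. The log2 ratios ran from -0.34 for *Atg5* to 0.40 for *Atg16l2*. The interval lay wholly below 0 for 3 of the 11 (27.3%, against 20.1% of all genes tested) and wholly above 0 for 3 (27.3%, against 22.2%).

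*Atg5* (ENSMUSG00000038160, chromosome 10 from 44268358 to 44364291) had 1224 control and 742 *Myl3*-KO counts. Its log2 ratio was -0.34 (95% interval -0.47 to -0.20, adjusted p = 4.67e-06, exact binomial test), which is 1.26-fold lower. *Atg3* (chromosome 16 from 45158785 to 45188538) had 746 and 477 counts and a log2 ratio of -0.26 (95% interval -0.43 to -0.09). *Atg4a* (chromosome X from 140956907 to 141164270) had 671 and 425 counts and a log2 ratio of -0.27 (95% interval -0.45 to -0.10). For *Atg4a*, 60.8% of the 31-base words of its transcripts also occur elsewhere, mostly in *Atg4a-ps*. The table gave *Atg4a-ps* 0 counts in both libraries and *Atg4a* whole counts.

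None of the other 8 conjugation genes had an interval wholly below 0. *Atg7*, the activating enzyme gene, had 687 and 605 counts and a log2 ratio of 0.20 (95% interval 0.04 to 0.36). *Atg12*, which encodes the partner of ATG5, had 713 and 619 counts and a log2 ratio of 0.18 (95% interval 0.02 to 0.34). The intervals of *Atg5* and *Atg12*, whose products form 1 conjugate, did not overlap, although the difference itself was not tested. The log2 ratio was -0.12 (95% interval -0.28 to 0.05) for *Atg16l1* and, with only 152 and 153 counts, 0.40 for the related *Atg16l2* (95% interval 0.06 to 0.73, adjusted p = 0.0502, exact binomial test). *Atg16l2* overlaps *Fchsd2* on the opposite strand. The intervals of *Atg4b*, *Atg4c*, *Atg4d* and *Atg10* all spanned 0, with log2 ratios between -0.06 for *Atg10* and 0.13 for *Atg4d*. Among the proteases, *Atg4b* was the most abundant, at 27.34 FPKM in *Myl3*-KO, followed by *Atg4a* at 17.30 and 14.32, with *Atg4c* and *Atg4d* below 5 FPKM in both libraries.

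**Figure D2:**
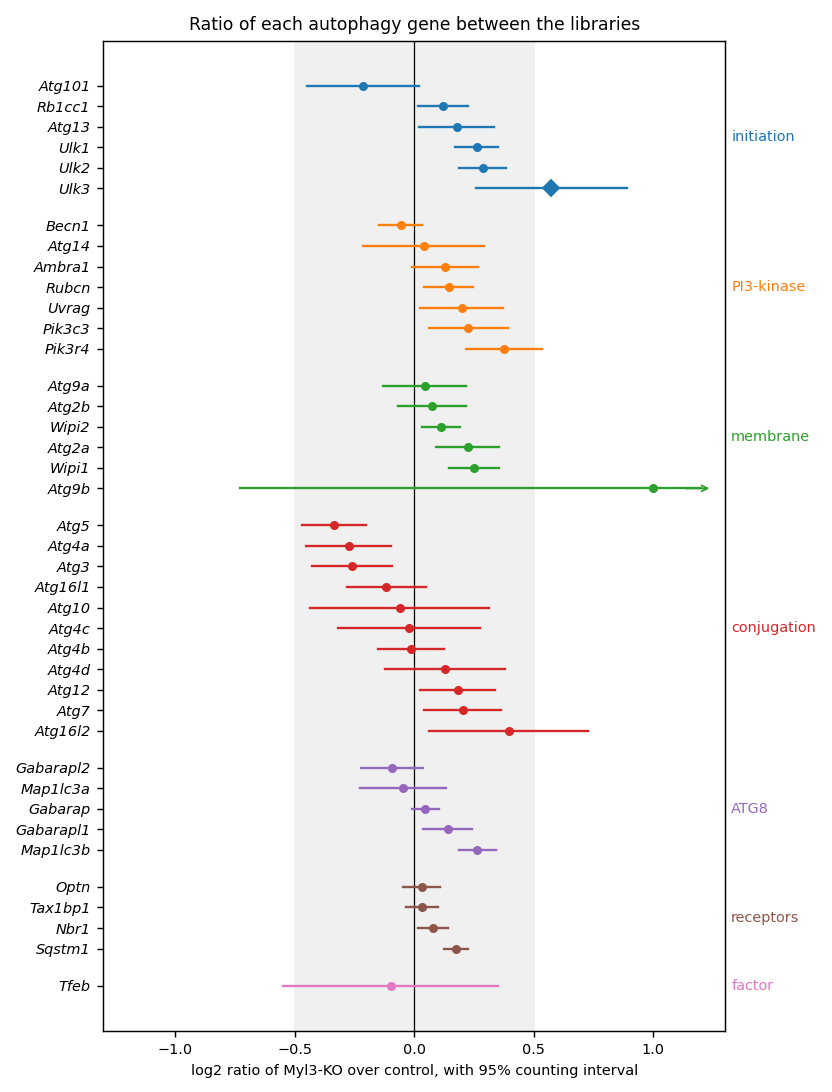
Log2 ratio (Myl3-KO divided by control) for the 40 autophagy genes tested, by role, with lines for 95% counting intervals, a diamond for a called gene and grey shading for ratios under 0.5 in size. Ulk3 at 0.57 is the only diamond, Atg5, Atg4a and Atg3 have intervals wholly below 0, and the interval of Atg9b runs beyond the axis to 3.02.

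Promoter sequences were searched as a description of the members and of all genes tested, and the matches were not compared with the ratios. The transcription factors TFEB and TFE3 bind E-boxes, of which CACGTG is the core and GTCACGTG a longer form. Of the 41 autophagy genes, 34 have an entry in the RefSeq promoter table for GRCm38.p6, which covers 250 bases before and 50 after each start. CACGTG, which reads the same on both strands, occurred in 5 of the 34 (14.7%), namely *Atg3*, *Atg5*, *Atg7*, *Atg14* and *Rubcn*, against 11.9% of the 9427 genes tested that have an entry. GTCACGTG, searched on both strands and always overlapping CACGTG, occurred in 3 (8.82%), against 4.88%. The windows below are those of the 4 genes in which the motif lay wholly before the start, with CACGTG in capitals and 5′ to 3′ on the strand of the gene.
Atg5, + strand, chr10:44268298-44268338: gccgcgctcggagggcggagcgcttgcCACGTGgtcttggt
Atg3, + strand, chr16:45158708-45158790: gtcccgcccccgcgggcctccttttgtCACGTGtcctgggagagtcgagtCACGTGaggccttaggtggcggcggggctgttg
Atg7, + strand, chr6:114670937-114670996: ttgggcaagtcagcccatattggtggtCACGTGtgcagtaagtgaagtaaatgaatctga
Rubcn, - strand, chr16:32868422-32868481: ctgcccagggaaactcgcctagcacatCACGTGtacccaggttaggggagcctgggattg
The motif began 14 bases before the start of *Atg5*, 94 and 71 before that of *Atg3*, 132 before that of *Atg7* and 88 before that of *Rubcn*, and in *Atg14* it spanned the start. The RefSeq starts used for *Atg3*, *Atg7* and *Rubcn* lie inside their GENCODE loci. For *Atg3* the window runs just past the GENCODE start at 45158785. The windows of *Atg7* and *Rubcn* lie wholly inside loci that begin at 114643097 and, on the - strand, at 32877766. A match is a description of the letters and not of a bound site.

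The ATG8 family was among the most abundant of the autophagy genes. Its 5 genes summed to 454.48 control and 487.15 *Myl3*-KO FPKM. *Gabarap* (chromosome 11 from 69991143 to 69994951), which encodes the founding member of the GABARAP branch, made up 53.3% and 51.3% of these sums. Its level was 242.32 FPKM (95% counting interval 236 to 249) and 249.83 FPKM (243 to 257), above 97.9% of the genes tested in the control. Its 5564 and 4400 counts gave a log2 ratio of 0.05 (95% interval -0.01 to 0.10). It was the best counted of the family, and any difference between the libraries was small.

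*Map1lc3b* (ENSMUSG00000031812, chromosome 8 from 121590361 to 121598760), which encodes the LC3B protein used as the standard marker of autophagosomes, was second in level and had the highest ratio of the family. It had 2891 control and 2657 *Myl3*-KO counts, a log2 ratio of 0.26 (95% interval 0.19 to 0.34, adjusted p = 2.11e-10, exact binomial test). Its level went from 87.21 FPKM (95% counting interval 84.1 to 90.4) to 109.75 FPKM (106 to 114), and its share of the family from 19.2% to 22.5%. Its exons overlap those of *Zcchc14* on the opposite strand, and 7.77% of its 31-base words occur in other genes, mostly *Gm6055*.

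*Gabarapl1* had 1741 and 1468 counts and a log2 ratio of 0.14 (95% interval 0.04 to 0.24). *Gabarapl2*, with 1177 and 845 counts and a log2 ratio of -0.09 (95% interval -0.22 to 0.04), and *Map1lc3a*, with 603 and 447 counts and a log2 ratio of -0.05 (95% interval -0.23 to 0.13), were the lowest. The order of levels was *Gabarap*, *Map1lc3b*, *Gabarapl1*, *Gabarapl2* and *Map1lc3a* in both libraries, and no 2 neighbours in it had overlapping counting intervals. Within the LC3 branch, the ratio intervals of *Map1lc3b* and *Map1lc3a* did not overlap, although their difference was not tested itself. They did overlap once the median of genes of like length was subtracted, at 0.14 to 0.30 for *Map1lc3b* and -0.14 to 0.22 for *Map1lc3a*.

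The cargo receptors bind ubiquitin and ATG8 proteins and are themselves degraded with their cargo. None of the 4 was called, against 4.03% of all genes tested called higher and 1.37% lower. *Sqstm1* (ENSMUSG00000015837, chromosome 11 from 50199366 to 50210827), which encodes p62, had 6692.23 control and 5786.35 *Myl3*-KO counts. Its log2 ratio was 0.18 (95% interval 0.13 to 0.23, adjusted p = 2.19e-10, exact binomial test), or 1.13-fold. It stood at 184.37 and 208.29 FPKM, the second most abundant of all 41 genes in both libraries. Its counts were not whole and its exons overlap those of *Mrnip* on the opposite strand.

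The other receptors stood at levels close to each other and at ratios close to 0. *Tax1bp1* was at 71.93 and 73.73 FPKM, *Optn* (optineurin) at 66.28 and 67.89, and *Nbr1* at 61.06 and 63.92. The log2 ratio of *Nbr1* was 0.08 (95% interval 0.02 to 0.14), that of *Tax1bp1* 0.03 (95% interval -0.03 to 0.10) and that of *Optn* 0.03 (95% interval -0.05 to 0.11). These intervals are narrow and exclude a log2 ratio of 0.25 in either direction.

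*Tfeb*, which encodes the transcription factor of lysosomal and autophagy genes, was weakly expressed at 2.58 control and 2.32 *Myl3*-KO FPKM. Its 102 and 73 counts gave a log2 ratio of -0.10 (95% interval -0.55 to 0.35), an interval that also holds the ratio of *Atg5*. The related *Tfe3*, which is not among the 41 genes, was at 42.95 and 51.01 FPKM, with a log2 ratio of 0.12 (95% interval 0.03 to 0.21) from its counts. *Mitf*, another factor of this family, had 129 and 82 counts and a log2 ratio of -0.27 (95% interval -0.69 to 0.14). None of the 3 factors was called.

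The ratios of the autophagy genes went with gene length, as did those of the whole table. Over all 12199 genes tested with a length in GENCODE M21, the median log2 ratio ran from -0.09 in the shortest of 10 length bins to 0.08 in the longest, and Spearman's rho of exon length and ratio was 0.16. Over the 40 members rho was 0.36. Genes are not independent replicates, and the points share 2 libraries, so these are descriptions. *Atg5*, *Atg3* and *Atg4a* lie in bins 2 and 3 by length and *Pik3r4*, *Ulk1* and *Map1lc3b* in bins 8 and 9. The other genes called higher at the limit of 0.25 lie between them, *Ulk3* and *Wipi1* in bin 5 and *Ulk2* in bin 7. With the median of its bin subtracted, *Atg5* stood at -0.31 (interval -0.44 to -0.18), *Atg3* at -0.23, *Atg4a* at -0.25, *Ulk1* at 0.22, *Pik3r4* at 0.30 and *Ulk3* at 0.56. The intervals of these 6 genes still lay on the same side of 0, while those of *Atg7*, *Atg12*, *Atg16l2*, *Rb1cc1*, *Uvrag*, *Rubcn*, *Wipi2* and *Nbr1* no longer excluded 0. Intervals that had spanned 0 no longer did so for *Gabarap*, which went from 0.05 to 0.13 (interval 0.08 to 0.19), for *Becn1*, which went from -0.06 to -0.10 (interval -0.19 to -0.01), and for *Atg16l1*, which went from -0.12 to -0.19 (interval -0.36 to -0.02).

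**Figure D3:**
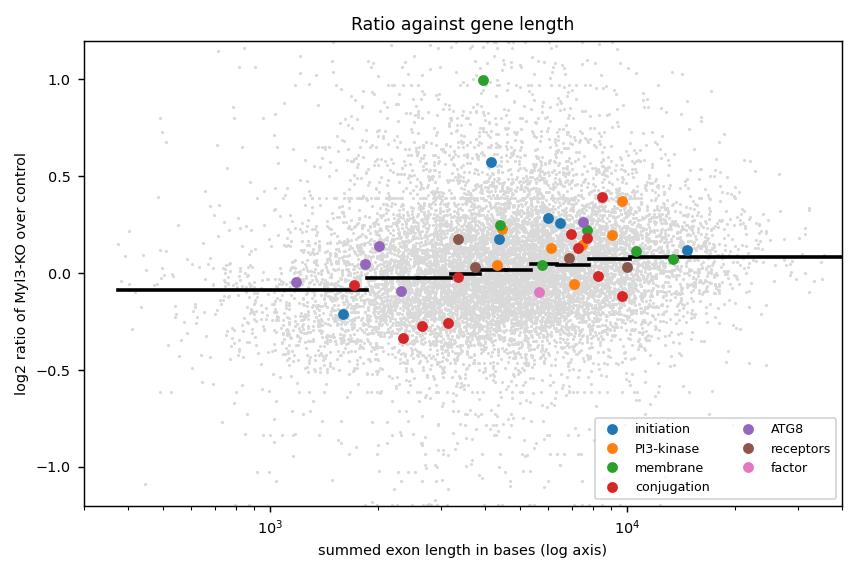
Log2 ratio (Myl3-KO divided by control) against summed exon length (log axis) for all genes tested in grey and for the 40 autophagy genes in the colour of their role, with black bars for the median of each of 10 bins of genes by length. The bars climb from -0.09 to 0.08, and the conjugation genes Atg5, Atg4a and Atg3 lie below the bars of their lengths.

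For some autophagy genes the deposited FPKM gave another ratio than the counts. The relation of FPKM to counts differed between the libraries for some genes, and for 6 of the 39 members with at least 1 FPKM in both libraries the 2 log2 ratios differed by at least 0.05, against 18.5% of all genes at such levels. For *Atg7* the FPKM went from 16.29 to 20.90, a log2 ratio of 0.36, which is 0.16 above that of its counts. For *Atg4b* the FPKM gave a log2 ratio of -0.18 where the counts gave -0.01. *Atg16l2* differed by -0.15, and *Atg9a*, *Map1lc3b* and *Tfeb* by 0.10, 0.07 and -0.06. No gene of the machinery changed its call with the FPKM ratio.

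Beyond the core machinery, 97 genes of 7 lists around it were found in the table and 93 were tested. Of these, 1 was called higher and 1 lower (against 4.03% and 1.37% of all genes tested), and their median log2 ratio was 0.01. *Calcoco1* (ENSMUSG00000023055, chromosome 15 from 102706777 to 102722178), which encodes a receptor for autophagy of the endoplasmic reticulum and Golgi, was called higher. It had 1337 control and 1507 *Myl3*-KO counts, and 26.82 and 39.45 FPKM. Its log2 ratio was 0.56 (95% interval 0.45 to 0.67, adjusted p = 3.98e-23, exact binomial test), or 1.47-fold. *Prkag3*, which encodes a regulatory subunit of the AMP-activated protein kinase best known from skeletal muscle, was called lower with 51 and 20 counts and a log2 ratio of -0.96 (95% interval -1.79 to -0.19, adjusted p = 0.0347, exact binomial test). Neither call held with a coefficient of variation of 0.1 between replicates.

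The mitochondrial receptor genes *Bnip3l* and *Bnip3* had ratios below 0 and were not called. *Bnip3l*, which encodes the mitophagy receptor NIX, had 2080 and 1240 counts, a log2 ratio of -0.36 (95% interval -0.46 to -0.26, adjusted p = 4.84e-11, exact binomial test). *Bnip3*, a receptor gene known to be induced at low oxygen, had 70 and 37 counts and a log2 ratio of -0.53 (95% interval -1.15 to 0.06), which spans 0. *Hif1a*, which encodes a transcription factor known for that induction, had a log2 ratio of -0.26 (95% interval -0.34 to -0.17). A link between its ratio and those of the receptor genes was not tested. Over the 16 tested genes of the receptor list, *Calcoco1* and these receptors included, the median was -0.04.

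Among the genes that set the initiation step, mTORC1 and its inputs had a median log2 ratio of 0.01 over 25 genes, from -0.36 for *Rheb* to 0.32 for *Mtor*. *Mtor*, the kinase gene, had 1334 and 1272 counts (95% interval 0.21 to 0.43). *Rheb*, which encodes the small GTPase that activates mTORC1, had 2691 and 1609 counts (95% interval -0.45 to -0.27). At the limit of 0.25, *Mtor* and *Fnip2* were called higher and *Rheb* and *Rragb* lower, which is 8% of the 25 each way, close to the 11.4% and 8.39% of all genes tested. The 8 genes of the AMP-activated protein kinase and its activating kinase *Stk11* had a median of -0.01, and all but *Prkag3* had intervals that spanned 0.

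Of the later steps, the 13 genes of autophagosome fusion with the lysosome had a median log2 ratio of 0.14. None was called, against 4.03% of all genes tested called higher and 1.37% lower. At the limit of 0.25 *Plekhm1*, *Vps39* and *Tecpr1* were called higher (3 of 13, against 11.4% of all genes tested) and 0 lower (against 8.39%). The 12 other autophagosome formation genes had a median of 0.01. Among them, *Vmp1*, which encodes an endoplasmic reticulum scramblase, had 5453 and 4671 counts and a log2 ratio of 0.16 (95% interval 0.11 to 0.22). The 13 transcription factors tested that are known to act on autophagy genes, the repressor *Zkscan3* included, had a median of -0.00, and the 6 tested genes shared with cell death one of -0.10.

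**Figure D4:**
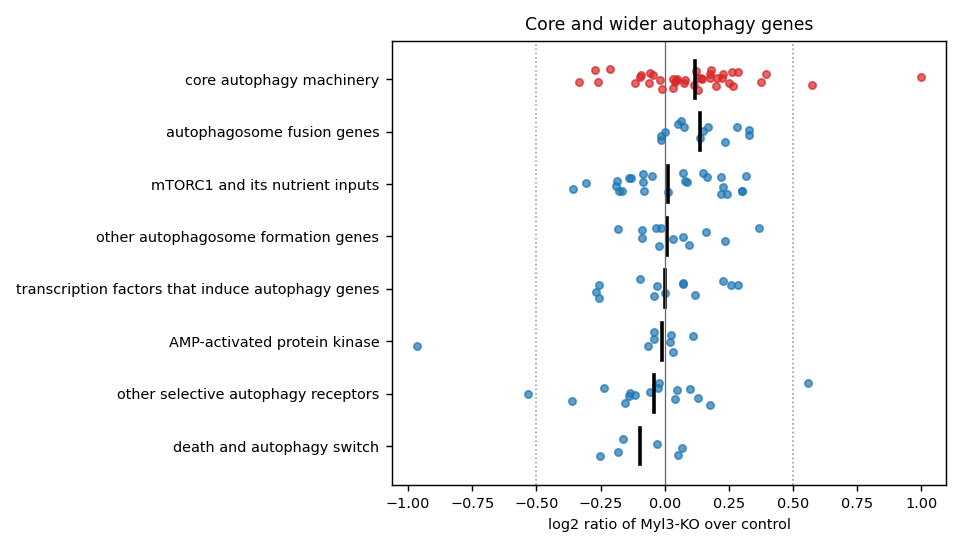
Log2 ratio (Myl3-KO divided by control) for the 40 core autophagy genes (red) and the 93 tested genes of 7 wider lists (blue), 1 point per gene with vertical jitter, black bars for medians and dotted lines at 0.5 in size. The medians run from -0.10 for genes shared with cell death to 0.14 for fusion genes, with 0.12 for the core, and only Prkag3, Bnip3, Calcoco1, Ulk3 and Atg9b lie beyond the dotted lines.

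The KEGG annotation that the authors deposited beside each gene gave a further list, looked up after the values above were seen. Of 129 genes annotated to animal autophagy, 32 were among the 41 described here. Of the 120 tested, 4 were called higher and 0 lower (4.03% and 1.37% of all genes tested were), and their median log2 ratio was 0.06. The 4 were *Ern1*, *Irs2*, *Pik3cd* and *Rab7b*, which encode a sensor of unfolded protein, an insulin receptor substrate, a class I PI3-kinase subunit and a small GTPase of late endosomes. Their log2 ratios were 0.53, 0.66, 0.68 and 0.75. None of the 4 belongs to the core machinery. Of the 62 tested genes annotated to mitophagy, 1 (*Rab7b*) was called higher and 0 lower, against the same 4.03% and 1.37%.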

How the data were processed

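The authors deposited a table of expected counts (reads assigned to a gene by estimate, not normalized) and of FPKM values, which scale reads by gene length and library. The aligner, the counting tool, the annotation and the strand setting are not given in the sources used here, and the submitters' processing notes name GRCm38 and mm10. The labels name a SMARTER library kit, while the study describes mRNA enriched on oligo beads. The column headed NC was read as control because the other is headed KO.

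Counts were divided by the library total. A replicated count model could not be fitted to single libraries. Genes with 10 counts or more in sum entered an exact binomial test, two-sided, on counts rounded to whole numbers, with Benjamini-Hochberg adjustment over all 12431 genes tested. The test was tried on simulated counts that held counting error alone. That trial says nothing of the spread between replicates. Counts under 3 were raised to 3 for ratios only. Intervals, and the limit that 3 counts set, cover counting error only.

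The members and lists were chosen with earlier results of these data known. All 41 members were named or counted, and in full those called, the ATG8 and receptor genes, and the highest and lowest of each other group. Of the wider lists, the called genes and *Tfe3*, *Mitf*, *Mtor*, *Bnip3*, *Bnip3l* and *Vmp1* were named by rule, and others were named after their values were seen.

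Coordinates, exon lengths and 31-base words came from GENCODE M21 on GRCm38, which held all 41 members and 21881 of 21910 Ensembl identifiers. Promoters came from RefSeq for GRCm38.p6. Alternatives were TMM, DESeq2 size factor and upper-quartile scaling, other filters, 1 added count, the FPKM ratio with 0 set to 0.001, edgeR's exact test with preset variation, other limits on the ratio and, chosen after seeing the data, subtraction of the median of each of 10 length bins. The FPKM ratio kept the adjusted p of the counts, so only the limit on size was put to it anew. Python 3.11.15, scipy 1.17.1, R 4.3.3, edgeR 4.0.16 and DESeq2 1.42.0 were used.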

Additional observations from a re-analysis of the deposited data

How the results depend on the processing

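Scaling by TMM, DESeq2 size factors or the upper quartile, both other filters, 1 added count and the FPKM ratio left the numbers of called genes as they were, with 1 core gene higher (*Ulk3*) and 0 lower, and of the wider genes 1 higher (*Calcoco1*) and 1 lower (*Prkag3*); subtracting length medians did so too. The median log2 ratio of the core genes lay between 0.06 (length medians subtracted) and 0.12, and that of the wider genes between -0.01 and 0.02. TMM shifted every gene by -0.02. With edgeR's exact test at a coefficient of variation of 0.1, 0.2 or 0.4, and at a limit of 1 or 2 on the log2 ratio, each of these counts of calls was 0. Over all genes, 41 were then called higher and 20 lower at 0.1, 3 and 1 at 0.2 and 1 and 0 at 0.4, with 143 and 49 at a limit of 1 and 31 and 5 at 2. At a limit of 0.25 (1423 and 1043 in the whole table) there were 6 core genes higher and 3 lower, and 9 wider genes higher and 7 lower. The counts therefore depend on the limit and on the spread assumed between replicates, which 1 library per genotype cannot give.

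With length medians subtracted, 5 core genes near 0 changed sign, namely *Map1lc3a* (0.0412), *Tax1bp1* (-0.0395), *Atg10* (0.0274), *Atg9a* (-0.0047) and *Atg2b* (-0.0082), none of them called. No paired analysis was possible because each genotype has a single library. Depth limits *Atg9b* and *Tfeb* most among the core genes.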
